A study of Mus musculus with 50 samples.

Results

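The genes described here encode the machinery that degrades messenger RNA: deadenylases, decapping factors, the RNA exosome, nonsense-mediated decay factors and ribosome rescue factors. They are 57 genes named by symbol, of 19198 genes listed, and all 57 had at least 1 transcript in the table. Levels came from 3′ poly(A) RNA sequencing of mouse embryonic stem cells of the line KH2, with the strain background C57BL/6 x 129/Sv, grown in serum with LIF and plated on gelatin. There were 5 genotypes, WT, Ythdf1_KO, Ythdf2_KO, Ythdf3_KO and Triple_KO, the last lacking all 3 Ythdf genes, which encode readers of N6-methyladenosine (m6A). Each genotype was harvested at 0, 4 and 8 h of 5 µM actinomycin D, a blocker of transcription, as replicates A and B. The 0 and 8 h replicates were each sequenced as duplicate libraries and the 4 h replicates as single libraries, which gives 50 libraries. All 5 genotypes received the drug, so every 4 and 8 h level was measured in its presence. How fully it blocked transcription in each genotype was not measured here. Whether a knockout line is 1 clone, and whether A and B were separate cultures, is not stated in the labels. The p-values below therefore measure the spread between these samples, which may be technical. Reads of A and B differed no more than those of duplicate libraries. The median chi-square per degree of freedom was 1.35 between A and B and 1.39 between duplicates.

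Decay of most messenger RNAs begins with removal of the poly(A) tail, carried out by the PAN2-PAN3 and CCR4-NOT complexes. The body is then either decapped by DCP2 and digested from the 5′ end by XRN1, or digested from the 3′ end by the exosome. The UPF and SMG proteins direct transcripts with premature stop codons into these routes, and Pelota with HBS1L releases stalled ribosomes. YTHDF proteins bind m6A in transcripts, and YTHDF2 is known to recruit CCR4-NOT through the scaffold subunit CNOT1. The measurements below are of the messenger RNAs that encode this machinery, not of its activity.

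Libraries held 796921 to 2341410 reads, with a median of 1364120. Values are FPM, reads scaled to a common library total, in which 1 read is worth 0.427 to 1.255 FPM. Listed genes took 42.3% to 45.3% of that total at 0 h in all 5 genotypes. At 8 h they took 32.9% to 33.4% in WT, 29.5% to 35.0% in the 3 single knockouts and 39.5% to 43.0% in Triple_KO. A change over time in FPM thus holds a part shared by all genes, and the median gene is given beside each change. The targeted genes check nothing here, since 3′ reads can lie outside an edited part. Ythdf2 at 0 h had a median of 53.4 FPM in WT, 32.4 FPM in Ythdf2_KO and 87.8 FPM in Triple_KO. Ythdf1 had medians of 55.1, 55.8 and 41.3 FPM in WT, Ythdf1_KO and Triple_KO, and Ythdf3 of 23.2, 23.7 and 22.1 FPM in WT, Ythdf3_KO and Triple_KO. Stem cell markers were present in WT at 0 h, with mean levels of 845 FPM for Pou5f1, 783 FPM for Dppa5a and 129 FPM for Sox2, while Nanog had 2.2 FPM. The 8 stem cell markers summed to 2530 to 2700 FPM in WT and 2090 to 2190 FPM in Triple_KO at 0 h. Pou5f1, Dppa5a, Tdgf1 and Esrrb had lower means in Triple_KO. Sox2 (129 and 129 FPM), Zfp42 (114 and 113 FPM) and Klf4 (150 and 151 FPM) had like means in WT and Triple_KO. The 13 fibroblast markers summed to 399 to 449 FPM in WT and 569 to 654 FPM in Triple_KO. The 10 endoderm and epithelial markers summed to 176 to 207 FPM and 292 to 313 FPM but did not move together. Krt8 averaged 75.4 FPM in WT and 145 FPM in Triple_KO, and Krt18 34.4 and 101 FPM. Lama1 went the other way with 47.0 and 24.5 FPM, as did Col4a1 with 19.4 and 10.5 FPM and Col4a2 with 14.9 and 11.4 FPM. The others of that list were at low levels. In bulk RNA, fewer cells of a type and less RNA per cell cannot be told apart.

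In all, 51 of the 57 members reached 5 FPM in 2 or more of the replicate means and were tested. The 6 others were at low levels: the WT means at 0 h were 0.154 FPM for Btg1, an antiproliferative CCR4-NOT partner, 1.63 FPM for the deadenylase Cnot6l and 0.469 FPM for the decapping cofactor Dcp1b. They were 1.8 FPM for Lsm1 and 0.61 FPM for Lsm6, subunits of the cytoplasmic LSm ring, and 0.533 FPM for Xrn1, the cytoplasmic 5′ exonuclease. With 3′ reads counted against one annotation, such a level describes the reads assigned and not the protein. Members were tested in limma on log2(FPM + 1), with n = 2 replicates per genotype and time, and p-values were adjusted over all genes tested (8660 at 0 h and 9042 over time). On GRCm38.p6 the genes the results turn on most lie at chr11:58092794-58118597 (Cnot8), chr10:116485160-116581900 (Cnot2), chr15:76327397-76330670 (Exosc4), chr14:99076634-99099780 (Dis3), chr1:86701924-87050097 (Dis3l2), chr13:115088355-115090158 (Pelo), chr9:44602983-44640731 (Ddx6) and chr15:36595658-36609581 (Pabpc1), all protein-coding. A member is said to have risen or fallen only at an adjusted p under 0.05.

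After 8 h of actinomycin D in WT cells, transcripts of 8 of 9 tested CCR4-NOT genes, both TOB genes, 5 of 6 decapping genes and 9 of 12 exosome genes fell as a share of the library. Pabpc1, the cytoplasmic poly(A)-binding protein, rose by 0.16 on the log2 scale, and 2 of 5 LSm genes fell while the other 3 did not pass the test. Among the 51 tested members 34 fell, or 66.7%, against 55.2% of all tested genes, and 1 rose, against 1.73% of all tested genes. The members' median log2 change was -0.87 and that of all genes -0.81. The range ran from -3.23 for Exosc1 to 0.40 for Dis3l2. Dis3l2 acts outside the exosome but is counted with the exosome genes throughout. Scaling on the listed genes by TMM in place of the library total moved the median gene from -0.81 to -0.19. The split of the members then became 7 higher and 13 lower, and 14 of the 35 calls were shared with the library-total scale. The share of all genes called under TMM is not given here. This split and the TMM splits below thus describe the members alone and are not set against a background. Of the 35, 4 turned direction under TMM without passing there: Cnot10 (0.16), Lsm3 (0.26), Exosc2 (0.24) and Exosc5 (0.07). A fall in FPM of a member near the median is therefore a fall relative to the library total alone.

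Within CCR4-NOT, the main deadenylase complex, 8 of 9 tested subunits fell, with a median of -1.29. Cnot2, a non-enzymatic subunit, had 45.0, 45.6, 40.6 and 48.9 FPM in the 4 WT libraries at 0 h and 17.1, 4.01, 6.75 and 3.52 FPM at 8 h. The groups did not overlap, and the log2 change was -2.61 ± 0.27 (SE, adjusted p 6.48e-13 in limma), which is -1.80 relative to the median gene. Cnot8, a catalytic subunit, had 46.3, 40.6, 52.4 and 41.9 FPM at 0 h and 3.42, 14.0, 5.06 and 8.80 FPM at 8 h. Its log2 change was -2.54 ± 0.25 (SE, adjusted p 2.22e-13 in limma), or -1.73 relative to the median gene. Cnot10 had the smallest change of the complex at -0.53 ± 0.18 (SE), which TMM scaling turned to 0.16. The scaffold Cnot1 fell by 1.29 on the log2 scale, and the catalytic subunit Cnot6 had -1.10 ± 0.56 (SE) with an adjusted p of 0.0879 in limma. TOB proteins link CCR4-NOT to poly(A)-binding protein, and both tested TOB genes fell. Tob2 had 8.63, 12.7, 4.12 and 7.69 FPM at 0 h, was at 0 in both 4 h libraries and had 1.76 FPM in 1 of 4 libraries at 8 h. Reads pooled over libraries put its 8 h level 16.6-fold lower than at 0 h, with a 95% exact interval of 4.35 to 141.0 that covers counting error only. At 4 h, with 0 reads, it was at least 6.38-fold lower than 7.92 FPM at 0 h, taking 3 reads over the group as the floor. Tob1 had 13.6, 12.7, 15.3 and 14.7 FPM at 0 h and 4.57, 0, 5.91 and 4.40 FPM at 8 h, a log2 change of -1.98 ± 0.50 (SE, adjusted p 0.000648 in limma). Without WT replicate A the Tob1 change was -1.39 with an adjusted p of 0.0975 in limma, so that call rested on that replicate.

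Outside CCR4-NOT, the deadenylase subunits Pan2 and Pan3 and the deadenylase Parn fell, by 0.85, 1.65 and 1.14 on the log2 scale. Pabpc1, the main cytoplasmic poly(A)-binding protein, was the member that rose. Its levels were 801, 796, 818 and 798 FPM at 0 h and 871, 939, 866 and 912 FPM at 8 h, a log2 change of 0.16 ± 0.05 (SE, adjusted p 0.00415 in limma). Without WT replicate A the Pabpc1 change was 0.14 with an adjusted p of 0.107 in limma. Its paralog Pabpc4 had -0.06 ± 0.14 (SE). The DEAD-box helicase Ddx6, which joins deadenylation to decapping, had 161, 148, 130 and 180 FPM at 0 h and 49.1, 42.1, 38.0 and 51.0 FPM at 8 h. Its log2 change was -1.75 ± 0.14 (SE, adjusted p 1.3e-17 in limma), with no overlap between the times. The other decapping genes that fell were Edc3 at -1.80, Dcp1a at -1.49, the catalytic Dcp2 at -0.96 and the scaffold Edc4 at -0.81, while Patl1 had -0.52 ± 0.37 (SE) with an adjusted p of 0.224 in limma. LSm proteins form the ring that binds oligoadenylated 3′ ends, and the 5 tested had a median of -0.01, or 0.80 above the median gene. Of these Lsm2 and Lsm3 fell, by 0.93 and 0.43 on the log2 scale, and Lsm4 had 0.19 ± 0.10 (SE) with an adjusted p of 0.11 in limma. The nuclear 5′ exonuclease Xrn2 had -0.43 ± 0.20 (SE) with an adjusted p of 0.0543 in limma.

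Of the 12 genes counted as exosome genes, Dis3l2 included, 9 fell, with a median of -0.86. Exosc1, a cap subunit of the exosome ring, had 12.9, 9.30, 17.7 and 19.6 FPM at 0 h and 0, 1.00, 2.53 and 0 FPM at 8 h. Its log2 change was -3.23 ± 0.46 (SE, adjusted p 1.81e-08 in limma), read on a pseudocount of 1 FPM that understates falls of low genes. The ring subunit Exosc4 fell from 43.8, 45.6, 36.5 and 44.7 FPM to 11.4, 10.0, 14.3 and 11.4 FPM, or by 1.77 ± 0.21 on the log2 scale (SE, adjusted p 1.44e-10 in limma). The catalytic subunit Dis3 fell by 1.13, the nuclear subunit Exosc10 had -0.60 and Dis3l -0.78, neither passing the test. Dis3l2, an exosome-independent 3′ exonuclease for uridylated RNA, had 0.40 ± 0.41 (SE) with an adjusted p of 0.41 in limma. In nonsense-mediated decay 4 of 9 genes fell, Smg8 at -1.92, Upf2 at -0.91, Upf3a at -0.87 and Smg6 at -0.80, and the others ran from -0.84 for Smg1 to -0.22 for Smg5. Smg8, a regulatory partner of the SMG1 kinase, was low throughout, with 8.63, 9.30, 7.65 and 10.5 FPM at 0 h and 1.14, 2.01, 1.69 and 1.76 FPM at 8 h. Pelo, the ribosome rescue factor Pelota, had 17.9, 19.4, 14.7 and 15.4 FPM at 0 h and 3.42, 4.01, 3.38 and 0 FPM at 8 h. It fell by 2.50 ± 0.44 on the log2 scale (SE, adjusted p 2.89e-06 in limma), and its partner Hbs1l had -0.40 ± 0.22 (SE) with an adjusted p of 0.106 in limma.

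**Figure D1:**
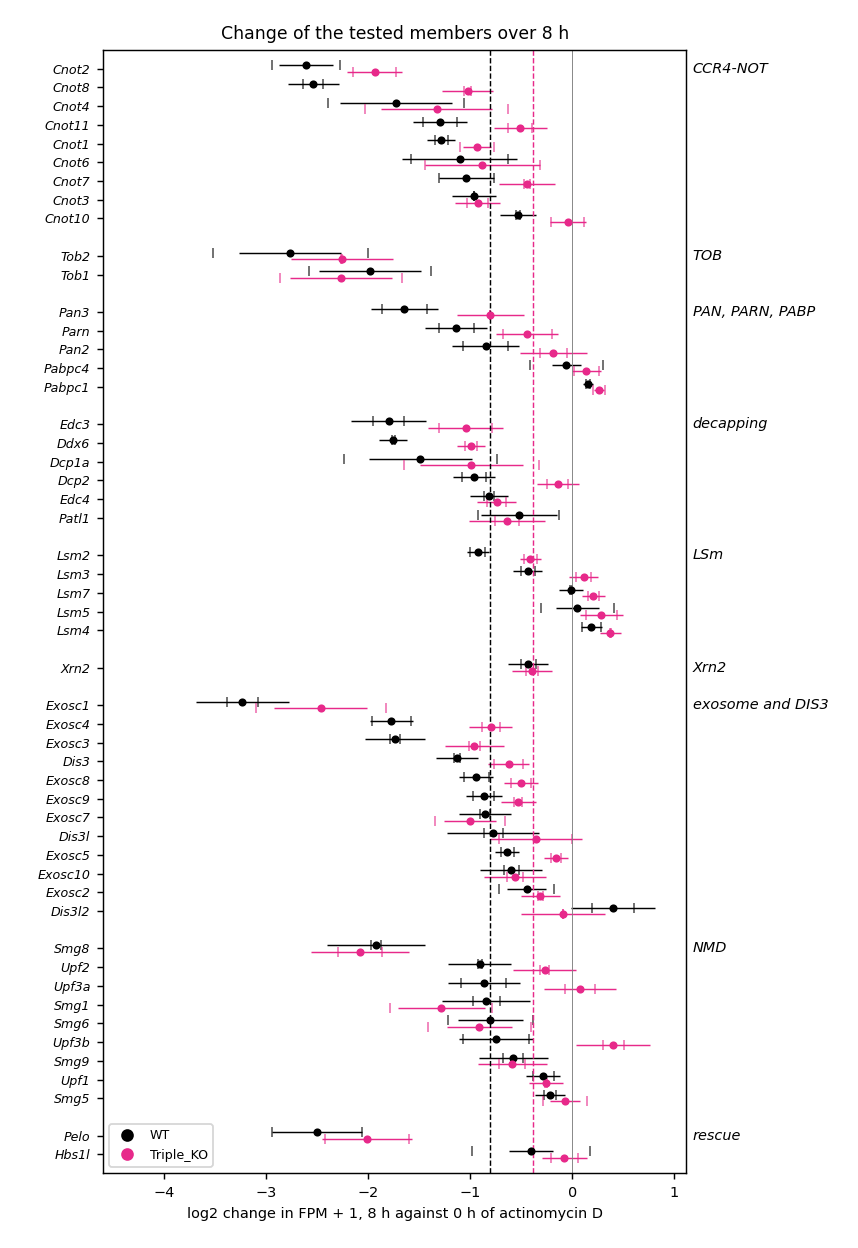
Change in log2(FPM + 1) from 0 to 8 h of actinomycin D on the x axis, for the 51 tested members in rows by role, in WT (black) and Triple_KO (pink); dots are fitted changes, bars 1 SE, ticks replicates A and B, and dashed lines the median of all tested genes (-0.81 in WT and -0.39 in Triple_KO). Exosc1, Tob2, Cnot2, Cnot8 and Pelo lie furthest left in WT, and Pabpc1 and 4 of the 5 LSm genes lie right of the WT line.

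Since the readers under study bind m6A, the 3′ UTRs were searched on the sense strand for GGACT, a frequent form of the m6A consensus, in the first 300 bases after the stop codon. They were also searched for TATTTAT, an AU-rich element, in the last 300 bases of the transcript, and matches of the 2 motifs can share at most 1 base, the T that ends the first and begins the second. The first motif was in the window of 5 of 38 members with one, or 13.2%, against 2185 of 7008 tested genes, or 31.2%. The AU-rich one was in 2 of 38, or 5.26%, against 703 of 7008, or 10.0%. The members with GGACT were Cnot2, Cnot6, Tob2, Exosc1 and Exosc2, and those with TATTTAT were Cnot2 and Cnot8. Sites are shown for the 4 of these that were among the 5 largest falls in WT, so they were picked after the values were seen. Sequences are from GENCODE M21 on GRCm38 (mm10), given 5′ to 3′ on the transcript strand, with the searched letters in capitals and 8 bases on either side. They are in the 3′ UTR of Cnot2 at chr10:116510161-116510181 (minus strand) and chr10:116510040-116510062 (minus strand), of Cnot8 at chr11:58118540-58118562 (plus strand), of Exosc1 at chr19:41923951-41923971 (minus strand) and of Tob2 at chr15:81850540-81850560 (minus strand).
Cnot2 (m6A-type): acaaacacGGACTtgtcctct
Cnot2 (AU-rich): tctgttatTATTTATaattagaa
Cnot8 (AU-rich): gtaaatatTATTTATgtttttaa
Exosc1 (m6A-type): cccaaagaGGACTtcagcact
Tob2 (m6A-type): caagtgttGGACTcagcccct
A match is a description of letters, and neither methylation nor binding was measured. Ddx6, Exosc4, Edc3 and Tob1, which also fell, had neither motif in these windows.

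At 4 h in WT 17 members fell, against 27.2% of all tested genes, and 2 rose, against 3.63% of all tested genes. The members' median was -0.32 and that of all genes -0.37. Each replicate is 1 library at this time. By then Pelo had reached 1.72 and 2.39 FPM, with a log2 change of -2.55 ± 0.44 (SE, adjusted p 6.58e-06 in limma), no smaller than its 8 h change. Tob1 had 2.58 and 0.798 FPM at 4 h, with a log2 change of -2.57, and Smg8 had 0.86 and 1.59 FPM, with -2.18. Counted in pooled reads Smg8 was 7.19-fold lower than at 0 h, with a 95% exact interval of 2.33 to 36.0 from 3 reads. Most of the 8 h fall of these 3 low genes was thus present at 4 h. Cnot8 had 18.9 and 18.3 FPM at 4 h, below every 0 h library and above every 8 h library, and fell by 1.23 on the log2 scale. Exosc1 fell by 2.33 and Cnot2 by 1.75 on the log2 scale, and Upf1, the core helicase of nonsense-mediated decay, by 0.59. The Upf1 fall was not kept at 8 h, when its change was -0.28 with an adjusted p of 0.145 in limma. Likewise Smg5 fell by 0.40 at 4 h, while its 8 h change of -0.22 did not pass. The 2 members that rose were Pabpc1, by 0.23 with an adjusted p of 0.000107 in limma, and Lsm4, by 0.26 with an adjusted p of 0.0445 in limma. Without WT replicate B the Lsm4 change was 0.08 and did not pass. Under TMM scaling the split was 5 higher and 10 lower.

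Before treatment, the level of few members differed between knockout and WT cells. Those called in more than 1 knockout were Dis3l2, Dis3, Exosc4 and Pabpc1. All comparisons with WT use the same 4 WT libraries and so are not independent. In Ythdf1_KO 1 member rose, against 1.72% of all tested genes, and 0 fell, against 0.762%. At an unadjusted p under 0.05 limma had 3 members lower there, against 5.45% of all tested genes, and edgeR called 1 member in all. In Ythdf2_KO 1 rose, against 3.97%, and 2 fell, against 4.26%. In Ythdf3_KO 2 rose, against 2.45%, and 1 fell, against 1.97%. In Triple_KO 3 rose, against 14.4%, and 5 fell, against 7.56%. The members' median log2 difference in Triple_KO was 0.03 and that of all genes 0.07. The share of members that rose in Triple_KO, 5.88%, was thus below the share of all genes. Without the filter on low values 0, 1 and 1 members were called in Ythdf1_KO, Ythdf2_KO and Ythdf3_KO. In one fit over all times the counts were 0, 1, 0 and, in Triple_KO, 3, which were Dis3l2, Exosc4 and Pabpc1. Under TMM scaling Ythdf2_KO had 3 higher and 1 lower, Ythdf3_KO 5 and 1, and Triple_KO 3 and 5.

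Dis3l2 was higher than in WT in each of the 4 knockout genotypes. Its WT libraries had 3.08, 2.54, 5.30 and 4.89 FPM. Ythdf1_KO had 12.4, 10.4, 8.76 and 5.09 FPM, overlapping WT, Ythdf2_KO 9.03, 5.99, 7.88 and 12.4 FPM, and Ythdf3_KO 9.29, 9.08, 9.99 and 13.3 FPM. Triple_KO had 7.97, 15.5, 11.9 and 10.1 FPM, and outside Ythdf1_KO no knockout library overlapped the WT libraries. The log2 differences were 1.02 in Ythdf1_KO (adjusted p 0.0298 in limma), 0.99 in Ythdf2_KO (0.0159), 1.23 in Ythdf3_KO (0.00256) and 1.33 in Triple_KO (0.000151), each with an SE of 0.29. Since all 4 share the WT libraries, low values there enter each difference. Without WT replicate A the differences in the single knockouts were 0.68, 0.65 and 0.89 and none passed the test. The Ythdf1_KO call was also lost without Ythdf1_KO replicate A (0.68), the Ythdf2_KO call without Ythdf2_KO replicate B (0.80) and the Ythdf3_KO call without Ythdf3_KO replicate B (1.08). The Triple_KO call held with each replicate left out.

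Dis3, the catalytic subunit of the nuclear exosome, was lower. It had 51.8, 48.2, 60.6 and 53.8 FPM in WT, 31.6, 28.1, 31.9 and 34.1 FPM in Ythdf2_KO and 26.7, 34.2, 40.5 and 33.1 FPM in Ythdf3_KO. Triple_KO had 38.0, 37.6, 37.8 and 40.9 FPM, and Ythdf1_KO 37.6, 40.3, 46.7 and 33.8 FPM. Every WT library was above every knockout library. The log2 difference of Dis3 was -0.75 ± 0.14 in Ythdf2_KO (SE, adjusted p 2.54e-05 in limma), -0.67 in Ythdf3_KO (0.000457) and -0.46 in Triple_KO (0.0108), and it was -0.43 in Ythdf1_KO, which did not pass. The Ythdf3_KO call was lost without Ythdf3_KO replicate A (-0.53, adjusted p 0.0885 in limma). The Triple_KO call was lost without WT replicate B (-0.36), Triple_KO replicate A (-0.43) or Triple_KO replicate B (-0.49), and the Ythdf2_KO call held throughout.

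Exosc4 had 75.4, 64.2, 96.6 and 91.0 FPM in Triple_KO against 43.8, 45.6, 36.5 and 44.7 FPM in WT. These groups did not overlap, and the log2 difference was 0.91 ± 0.12 (SE, adjusted p 5.34e-11 in limma). In Ythdf3_KO Exosc4 had 54.6, 60.4, 60.5 and 54.5 FPM, a log2 difference of 0.43 (adjusted p 0.0196 in limma) that was lost without WT replicate B, Ythdf3_KO replicate A or Ythdf3_KO replicate B. Pelo had 40.5, 34.9, 32.9 and 34.2 FPM in Triple_KO against 17.9, 19.4, 14.7 and 15.4 FPM in WT, a log2 difference of 1.04 ± 0.20 (SE, adjusted p 4.88e-06 in limma). Its single-knockout libraries spanned 10.2 to 27.4 FPM, all below the Triple_KO libraries. The Pelo call was not among those of the fit over all times.

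The genes that fell in Triple_KO at 0 h beside Dis3 were Pabpc1, Lsm2, Dcp2 and Upf3b. Pabpc1 had 657, 678, 650 and 686 FPM against 801, 796, 818 and 798 FPM in WT, with no overlap, a log2 difference of -0.27 ± 0.04 (SE, adjusted p 2.85e-09 in limma). In Ythdf2_KO Pabpc1 had 793, 706, 737 and 710 FPM, a log2 difference of -0.13 (adjusted p 0.0227 in limma). That Ythdf2_KO call was lost with any WT or Ythdf2_KO replicate left out and under TMM scaling (-0.04). Lsm2 had 137, 135, 113 and 137 FPM in Triple_KO and 157, 163, 175 and 154 FPM in WT, a log2 difference of -0.31 ± 0.08 (SE, adjusted p 0.000673 in limma). Dcp2 had 31.9, 35.4, 29.7 and 42.9 FPM in Triple_KO and 42.6, 47.3, 58.9 and 54.5 FPM in WT, overlapping by 1 library, a log2 difference of -0.53 ± 0.14 (SE, adjusted p 0.00154 in limma). Upf3b, which links the exon junction complex to UPF2, had 4.91, 7.20, 10.3 and 4.33 FPM in Triple_KO and 9.25, 10.1, 20.6 and 14.0 FPM in WT, with overlap, a log2 difference of -0.92 ± 0.29 (SE, adjusted p 0.0107 in limma). Without WT replicate B the differences of Dcp2 (-0.36) and Upf3b (-0.54) did not pass, nor did Upf3b without Triple_KO replicate A (-0.84) or Lsm2 without Triple_KO replicate B (-0.25). In the same comparison 6 of 9 tested fibroblast markers rose and 0 fell, and 4 of 7 stem cell markers fell and 0 rose. Of the 5 tested endoderm and epithelial markers 2 rose and 2 fell. Their part in the Triple_KO differences was not tested. Among the fibroblast markers Col1a1 rose by 1.23, Col1a2 by 0.99 and Thy1 by 0.87 on the log2 scale. Lum was at 0 in every WT and Triple_KO library at 0 h, and Dcn was at 0 in every WT library and reached up to 2.16 FPM in Triple_KO.

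**Figure D2:**
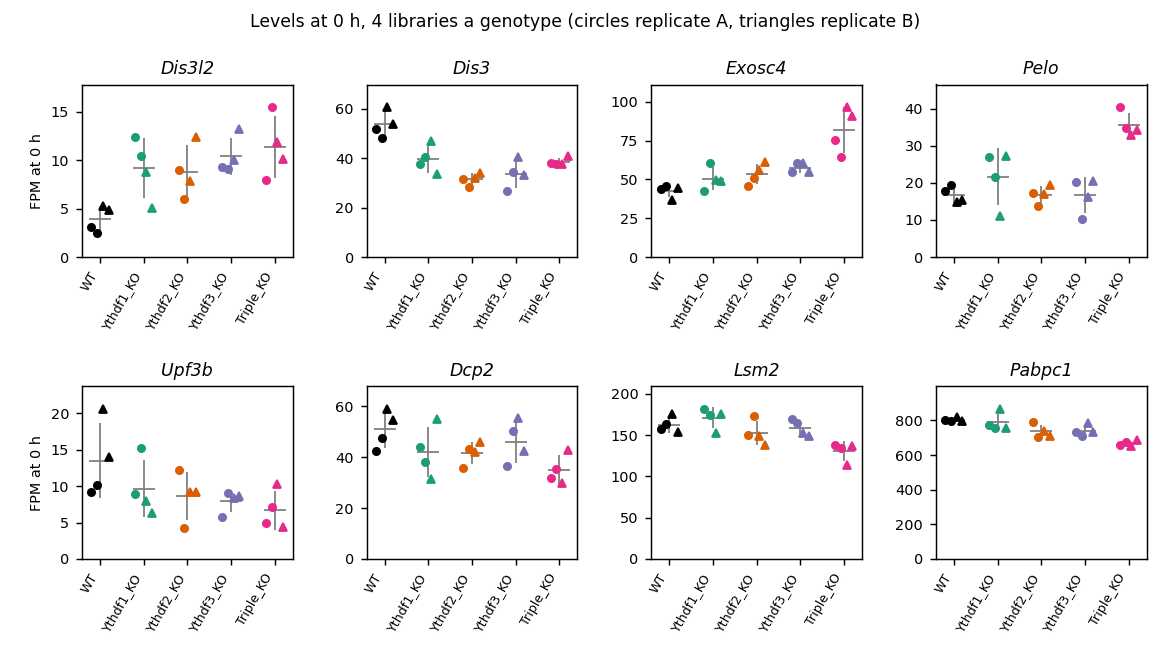
FPM at 0 h on the y axis for the members called in at least 1 knockout, by genotype on the x axis, with a point for each of 4 libraries (circles replicate A, triangles replicate B) and a bar at their mean with 1 SD. Exosc4 and Pelo stand apart in Triple_KO, Dis3 is lower in all 4 knockouts than in WT, and the WT libraries of Dis3l2 are the low ones.

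Over 8 h most tested members fell in each single knockout. In Ythdf1_KO 33 fell, against 54.6% of all tested genes, and 0 rose, against 1.38%. At an unadjusted p under 0.05 limma also had 0 members higher there, against 1.78%. In Ythdf2_KO 41 fell, against 62.7%, and 1 rose, against 0.597%. In Ythdf3_KO 35 fell, against 59.7%, and 1 rose, against 0.664%. The medians of members and of all genes were -0.81 and -0.77 in Ythdf1_KO, -1.06 and -0.92 in Ythdf2_KO, and -0.91 and -0.83 in Ythdf3_KO. The member that rose was Pabpc1 in both Ythdf2_KO and Ythdf3_KO, by 0.12. Under TMM scaling the splits were 6 higher and 14 lower in Ythdf1_KO, 7 and 17 in Ythdf2_KO and 8 and 14 in Ythdf3_KO. Of the members called on the library-total scale, 3, 7 and 6 turned direction under TMM in the same order, among them Lsm3 and Exosc5 in all 3 knockouts. All 6 tested decapping genes fell in Ythdf2_KO and in Ythdf3_KO, and 5 of 6 in Ythdf1_KO. Exosome genes fell in 10 of 12 cases in Ythdf1_KO, 11 in Ythdf2_KO and 10 in Ythdf3_KO. Nonsense-mediated decay genes fell in 4, 7 and 2 of 9 cases in the same order, and the differences among these counts were not tested. Tob1 reached 1.53, 0, 0 and 0 FPM at 8 h in Ythdf3_KO from 12.8, 19.8, 23.7 and 14.3 FPM at 0 h. In pooled reads Tob1 was 42.2-fold lower there, with a 95% exact interval of 11.5 to 352.0 from 2 reads.

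The test of the difference itself, the 8 h change in a knockout minus that in WT, called 0 members in each single knockout in either direction in limma. Among all tested genes it called 0.0442% higher and 0% lower in Ythdf1_KO, 0% and 0.199% in Ythdf2_KO, and 0% and 0.332% in Ythdf3_KO. At an unadjusted p under 0.05 limma had 4 members in Ythdf1_KO, against 5.16% of all tested genes. It had 3 in Ythdf2_KO, against 7.18%, and 2 in Ythdf3_KO, against 6.19%. On the same reads edgeR called 0 members in Ythdf1_KO, 0 in Ythdf2_KO and 1 in Ythdf3_KO, which was Tob1 with a log2 difference of -3.36 and an adjusted p of 0.0269 in edgeR. In limma the Tob1 difference was -1.86 with an adjusted p of 0.499.

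By 8 h in Triple_KO 21 members fell, against 25.8% of all tested genes, and 2 rose, against 3.44%. The members' median was -0.53 and that of all genes -0.39, so relative to the median gene the members stood at -0.14, against -0.06 in WT. TMM scaling gave 6 higher and 11 lower. The 2 members that rose were Pabpc1, by 0.26 ± 0.05 (SE, adjusted p 1.55e-05 in limma), and Lsm4, by 0.38 ± 0.10 (SE, adjusted p 0.0036 in limma). Lsm4 had 139, 134, 137 and 169 FPM at 0 h and 174, 178, 230.0 and 171 FPM at 8 h, and its call was lost without either Triple_KO replicate. Both TOB genes fell, Tob1 and Tob2 each by 2.26, as did Exosc1 by 2.46, Smg8 by 2.08, Pelo by 2.01 and Cnot2 by 1.94. Exosc1, Smg8 and Pelo did not pass without Triple_KO replicate A, nor Tob1 without Triple_KO replicate B. Cnot2 had 47.8, 49.8, 40.5 and 51.5 FPM at 0 h and 8.06, 13.0, 12.1 and 14.1 FPM at 8 h. CCR4-NOT genes fell in 4 of 9 cases, decapping genes in 3 of 6, exosome genes in 7 of 12 and nonsense-mediated decay genes in 3 of 9. Leaving out Triple_KO replicate A left 8 members called over 8 h and leaving out replicate B left 11, from 23.

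At 4 h in Triple_KO 7 members fell, against 7.63% of all tested genes, and 2 rose, against 3.24%, with medians of -0.16 for members and -0.11 for all genes. Those that fell included Tob2 by 1.95, Pelo by 1.28, Cnot2 by 1.19, Exosc7 and Cnot8 each by 0.85 and Ddx6 by 0.68. Pabpc1 rose by 0.28 and Lsm4 by 0.36. Leaving out Triple_KO replicate A left 1 call and leaving out replicate B left 2. TMM scaling gave 3 higher and 4 lower.

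The 8 h change differed between Triple_KO and WT for Cnot8, Ddx6, Exosc4 and Lsm2, each falling less in Triple_KO. These 4 of 51 members compare with 7.18% of all tested genes higher, and 0 members were lower, against 0.0221%. The members' median difference was 0.42 and that of all genes 0.37. The count is thus near the background, and the 4 are given for their values. Cnot8 in Triple_KO had 38.0, 36.5, 41.0 and 40.5 FPM at 0 h, 21.3 and 21.2 FPM at 4 h, and 16.1, 18.8, 24.2 and 16.5 FPM at 8 h. The 8 h libraries lay above all 4 WT libraries, which had 3.42, 14.0, 5.06 and 8.80 FPM. The log2 difference in change was 1.51 ± 0.35 (SE, adjusted p 0.00281 in limma), or 1.14 above the median gene. Exosc4 in Triple_KO had 56.5 and 77.5 FPM at 4 h and 43.2, 41.1, 52.3 and 48.3 FPM at 8 h. Its 8 h libraries overlapped the range of untreated WT cells, 36.5 to 45.6 FPM, while WT cells at 8 h had 10.0 to 14.3 FPM. The log2 difference in change was 0.98 ± 0.30 (SE, adjusted p 0.0315 in limma), beside the 0 h difference of 0.91. Ddx6 in Triple_KO had 156, 137, 139 and 133 FPM at 0 h and 96.7, 59.9, 74.0 and 57.1 FPM at 8 h, against 38.0 to 51.0 FPM in WT at 8 h, with no overlap. Its log2 difference in change was 0.76 ± 0.19 (SE, adjusted p 0.00609 in limma). Lsm2 in Triple_KO had 89.3, 107, 114 and 84.2 FPM at 8 h, overlapping WT at 94.8, 82.3, 79.3 and 83.6 FPM, and a log2 difference in change of 0.52 ± 0.15 (SE, adjusted p 0.0223 in limma).

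None of these 4 calls held throughout. Without Triple_KO replicate A, Cnot8 had 1.55 (adjusted p 0.0515 in limma) and without replicate B 1.48 (0.0744). Exosc4 lost its call without WT replicate A or either Triple_KO replicate and without the filter on low values, Ddx6 without WT replicate B or Triple_KO replicate A, and Lsm2 without WT replicate B or either Triple_KO replicate. Under TMM scaling the median gene moved from 0.37 to 0.05. The differences of Cnot8 (1.19), Exosc4 (0.64), Ddx6 (0.41) and Lsm2 (0.16) kept their sign without passing. The split became 0 higher and 1 lower, the lower member being Pabpc1, whose direction turned from 0.11 to -0.26 (adjusted p 0.024 in limma). On recovered reads edgeR called 8 members higher, including these 4. The difference in 4 h change called 0 members in limma in either direction, against 1.5% higher and 0.0221% lower among all tested genes. At an unadjusted p under 0.05 limma had 6 members higher, against 12% of all tested genes, and 1 lower, against 0.907%. By edgeR 1 was called, Exosc4 with a log2 difference of 0.88 (adjusted p 0.0494 in edgeR).

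**Figure D3:**
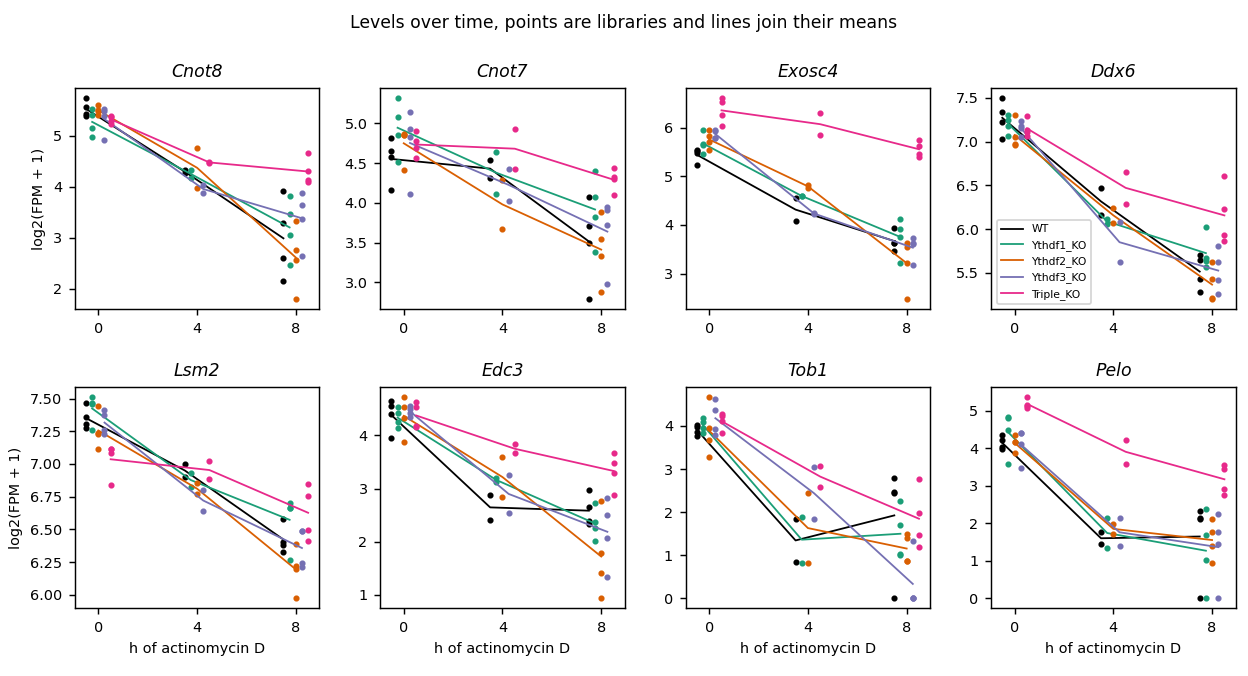
log2(FPM + 1) on the y axis against hours of actinomycin D on the x axis for members named in the comparisons over time, coloured by genotype, with a point for each library, shifted sideways by genotype, and lines joining the means at each time. In Exosc4 and Cnot8 the Triple_KO libraries lie above the WT libraries at 8 h.

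Set against the mean of the 3 single knockouts, a contrast with the same Triple_KO libraries but no WT library, the change in Triple_KO was higher for 10 members, or 19.6%, against 16.9% of all tested genes. It was lower for 0 members, against 0.0442%. Both medians were 0.42. At an unadjusted p under 0.05 limma had 17 members higher, against 29.8% of all tested genes, and 0 lower, against 0.21%. By edgeR 18 members were called higher, with no share of all genes given beside that count. Among the 10 were 4 exosome subunits: Exosc4, Exosc3, Exosc8 and Exosc5. Exosc4 had the largest difference and 8 h levels of 8.35 to 16.3 FPM in Ythdf1_KO, 4.55 to 11.4 FPM in Ythdf2_KO and 8.04 to 12.2 FPM in Ythdf3_KO, all below the 41.1 to 52.3 FPM of Triple_KO. Its log2 difference was 1.47 ± 0.24 (SE, adjusted p 5.21e-06 in limma). This call held with each replicate left out and under TMM scaling (1.13, adjusted p 0.00394 in limma). Cnot8 had 1.27 ± 0.29 (SE, adjusted p 0.000818 in limma), which was lost without Triple_KO replicate B (adjusted p 0.0517 in limma) and under TMM scaling (0.95). Its 8 h libraries in the single knockouts ran from 2.46 to 13.7 FPM, below the 16.1 FPM of the lowest Triple_KO library.

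Edc3, an enhancer of decapping, had 11.7, 10.1, 6.38 and 8.83 FPM at 8 h in Triple_KO against 1.64, 0.91, 5.79 and 2.44 FPM in Ythdf2_KO, and a log2 difference of 1.26 ± 0.42 (SE, adjusted p 0.0299 in limma). Exosc3, a cap subunit, had 10.3, 16.6, 15.9 and 13.0 FPM at 8 h in Triple_KO and 1.66 to 14.6 FPM in the single knockouts, with a log2 difference of 1.04 ± 0.34 (SE, adjusted p 0.0229 in limma). Exosc8 had 45.4, 39.7, 40.8 and 31.8 FPM at 8 h in Triple_KO and 13.1 to 50.2 FPM in the single knockouts, a difference of 0.74 ± 0.19 (SE, adjusted p 0.00416 in limma). These ranges overlapped. Ddx6 had a difference of 0.61 ± 0.16 (SE, adjusted p 0.00338 in limma), Lsm2 0.55, Lsm3 0.52, Exosc5 0.50 and Pabpc1 0.18. Lsm2, Lsm3, Exosc5 and Pabpc1 fall outside the 6 largest and were named after their values were seen. Edc3 and Exosc3 were lost without either Triple_KO replicate, and Exosc8 and Ddx6 without Triple_KO replicate A, and all 4 were lost under TMM scaling. TMM scaling left 1 higher, Exosc4, and 1 lower, Pabpc1, whose difference turned to -0.20 (adjusted p 0.04 in limma). At 8 h the fibroblast markers summed to 527 to 585 FPM in WT, 392 to 792 FPM in the single knockouts and 667 to 840 FPM in Triple_KO, and the listed share of the library was the 39.5% to 43.0% given above. The part of either in these differences was not tested.

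**Figure D4:**
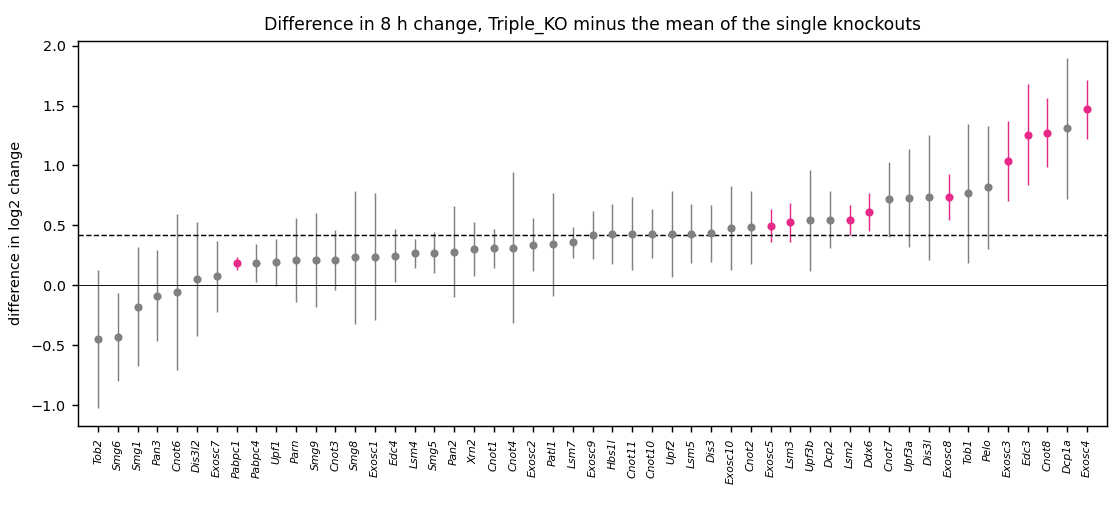
Difference in log2 change over 8 h, Triple_KO minus the mean of the 3 single knockouts, on the y axis for the 51 tested members in order of size, with bars of 1 SE; pink marks an adjusted p under 0.05 and the dashed line the median of all tested genes, 0.42. Exosc4 is furthest above that line at 1.47, and Pabpc1 passes the test while lying below it.

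Paralogous members were compared within the same samples, which cancels what a library shares. For 5 pairs both genes were tested, and each pair gave 10 genotype-by-replicate values of the 8 h log2 change. The exact sign permutation test was two-sided and adjusted over the 5 pairs. It took the 10 values as independent, although they are replicates A and B of 5 genotypes. Since A and B may be technical, its p-values can be too small and describe these samples only. Cnot8 fell more than Cnot7, its close paralog and alternative catalytic subunit in CCR4-NOT, in 10 of 10 samples. How reads matching both paralogs were counted is not stated in the labels. The mean change was -2.09 ± 0.67 for Cnot8 and -0.99 ± 0.45 for Cnot7 (SD, n = 10 values), a difference of 1.10 with an exact permutation p of 0.00195, the smallest that 10 values can give, and an adjusted p of 0.00977. Replicates A and B gave -2.44 and -2.64 for Cnot8 in WT, -2.08 and -2.05 in Ythdf1_KO, -2.89 and -2.88 in Ythdf2_KO, -2.06 and -1.83 in Ythdf3_KO, and -1.06 and -0.99 in Triple_KO. For Cnot7 they gave -0.77 and -1.31 in WT, -1.31 and -0.74 in Ythdf1_KO, -1.42 and -1.25 in Ythdf2_KO, -1.68 and -0.54 in Ythdf3_KO, and -0.47 and -0.41 in Triple_KO. The paralogs were thus furthest apart in WT replicate A and closest in Ythdf3_KO replicate A. At 0 h Cnot7 had 22.8, 16.9, 24.1 and 27.3 FPM in WT. The levels of the paralogs are not compared, since the counting of reads that match both is not stated.

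Upf3a fell more than Upf3b in 9 of 10 samples, with mean changes of -0.55 ± 0.50 and -0.15 ± 0.49 (SD, n = 10 values), an exact permutation p of 0.0117 and an adjusted p of 0.0293. Leaving out Ythdf2_KO replicate A, Ythdf2_KO replicate B or Ythdf3_KO replicate B gave differences of -0.393, -0.365 and -0.354, and the adjusted p was then 0.0586. The other pairs did not pass. Pabpc1 and Pabpc4, both poly(A)-binding proteins, had mean changes of 0.13 and -0.01 (adjusted p 0.0521, exact permutation test). Tob1 and Tob2 had -2.67 and -2.09 (adjusted p 0.105), and Dis3 and its cytoplasmic paralog Dis3l -0.99 and -0.88 (adjusted p 0.471). The pairs Cnot6 with Cnot6l, Dcp1a with Dcp1b and Xrn1 with Xrn2 were not compared, since Cnot6l, Dcp1b and Xrn1 were too low to test.

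**Figure D5:**
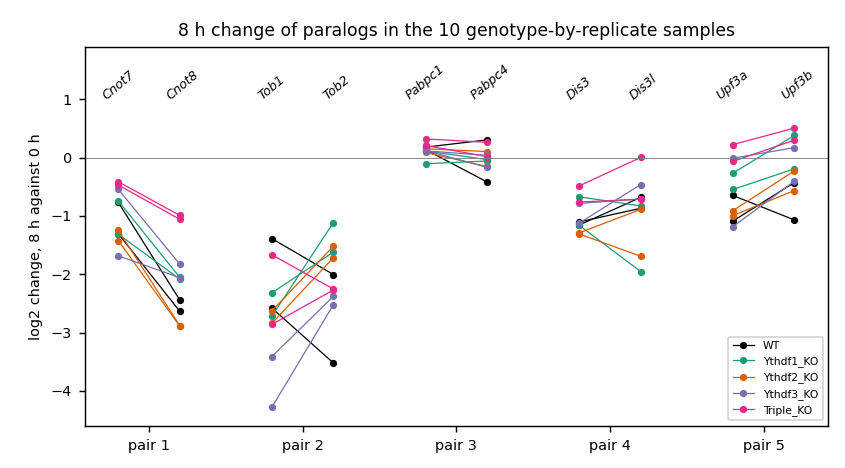
Log2 change over 8 h on the y axis for the 5 tested paralog pairs on the x axis, each line joining the 2 genes in 1 of 10 genotype-by-replicate samples, coloured by genotype. All 10 lines of Cnot7 and Cnot8 slope down to Cnot8.

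Other genes of the pathway gave a frame for these values. Of 51 further decay enzymes and subunits 46 were tested. In WT over 8 h 34 of them fell, or 73.9%, against 55.2% of all tested genes, and 0 rose, against 1.73%. Their median was -1.26 and that of all genes -0.81. At 0 h in Triple_KO 2 of them rose, or 4.35%, against 14.4% of all tested genes. They were Magohb by 1.43 and the circadian NADPH phosphatase Noct by 0.81. A further 3 fell, or 6.52%, against 7.56%. They were Tnks1bp1 by 0.86, the exosome helicase Skiv2l by 0.58 and Cnot9 by 0.41. The Skiv2l fall came mostly from replicate B, with -0.04 in A and -1.12 in B. The difference in 8 h change between Triple_KO and WT was higher for 2, or 4.35%, against 7.18% of all tested genes. They were Cnot9 at 0.91 and the ribosome collision sensor Zfp598 at 0.89. Against the mean of the single knockouts 9 of 46 were higher, against 16.9% of all tested genes. They were led by the deadenylase Toe1 at 1.76, Noct at 1.58 and the exosome subunit Exosc6 at 1.26. The 4 h difference was higher for Btg2 at 2.19 and Exosc6 at 1.64, against 1.5% of all tested genes. Of 25 RNA-binding and microRNA proteins that bring the decay machinery to targets, 17 were tested over time. By 8 h in WT 11 of them fell, or 64.7%, against 55.2% of all tested genes, with a median of -0.78. Zfp36l1, which binds AU-rich elements, was lower in Triple_KO at 0 h by 0.49. Its 8 h change was higher in Triple_KO than in WT by 0.97 and than in the single knockouts by 0.88. Also at 0 h in Triple_KO Pum2 rose by 0.49 and Samd4b by 0.44, and Lin28a fell by 0.32 and Celf1 by 0.25. The differences of Samd4b (0.79 in A and 0.08 in B) and Lin28a (-0.58 and -0.07) came mostly from replicate A.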

How the data were processed

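The submitters' processing notes name CASAVA 1.8.2, Bowtie2 and mm10; the counting settings, the handling of strand and of reads with several matches, and the rule behind the filtered table are not given in those sources. The deposited values are FPM, an RPM scale relative to each library's total, per the file headers and the values, for 22338 RefSeq transcripts. Whole reads could be recovered: 100% of values lay within 0.1 read of a whole number. Names came from RefSeq GRCm38.p6 (22012 transcripts) and GENCODE M21 (120), and 206 had none. Identical repeat rows (2187) were dropped and distinct rows of a gene summed (785 genes), which gave 19198 genes. Of these 1964 share identical values with another. Recovered reads of Pabpc4 were even in nearly every library, so rows summed for it may hold the same reads. Its level and its reads in edgeR may then be too high. How often this holds among the 785 genes was not tested.

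Values were transformed to log2(FPM + 1) and duplicates of a replicate then averaged, giving 2 replicates per genotype and time. Genes reaching 5 FPM in 2 or more of those means entered limma 3.58 in R 4.3, with empirical Bayes moderation along a trend in mean level, and p-values were adjusted after Benjamini and Hochberg over all genes tested. The 0 h fit held 10 replicate means and the time fit 30. Paralogs were compared by an exact sign permutation test that took A and B of each genotype as independent values. The script was tested on simulated data with a fixed dispersion and no shared change over time. Changes were put only into genes averaging 10 FPM or more, so the recovery does not cover lower members. For Triple_KO against WT at 0 h (7781 genes) it recovered 97% of genes changed by 1 on the log2 scale, with 16 false calls. For the difference in 8 h change (8523 genes) it recovered 44%, and 98% of those changed by 2, with 1 false call. Alternatives were a pseudocount of 0.25, no filter, TMM scaling, edgeR 4.0 on the recovered reads, a replicate block, one fit over all times, and each replicate left out.

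Named members were, per comparison, up to 6 rises and 6 falls past an adjusted p of 0.05 with the same sign in A and B, both genes of each paralog pair, and the highest and lowest 8 h change in WT per role. Members, gene lists and rules were chosen with earlier results of these data known. Duplicates of a replicate differed by more than counting error (chi-square per degree of freedom 1.27 to 1.62, median 1.39). So did replicates A and B (1.30 to 1.59, median 1.35), and none was counted as 1 library deposited again. By this measure A and B differed no more than duplicates did.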

Additional observations from a re-analysis of the deposited data

Results flagged for a closer look

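In the 19 members described most closely, 190 groups of 4 libraries were looked at. In 15 of them 1 library lay far from the other 3 by Dixon's test. For normally distributed values chance alone does so in about 1 in 20 groups, a rate that does not hold at low counts. For Cnot7, 1 Ythdf2_KO library at 0 h had 20.4 FPM while the others had 28.0 to 28.1. In Tob1, 1 Ythdf3_KO library at 8 h had 1.53 FPM and the others 0. In Tob2, 1 WT library at 8 h had 1.76 FPM and the others 0. With the others at 0 any level above 0 is flagged, so these flags do not mark an unusual library. Pabpc1 had 866 FPM in 1 Ythdf1_KO library of replicate B at 0 h and 684 FPM in 1 of replicate B at 8 h, against 757 to 775 and 827 to 831 in the others. Lsm2 was low in 1 Ythdf1_KO library at 8 h, at 76.2 FPM, and in 1 Triple_KO library at 0 h, at 113 FPM. Lsm4 was high in 1 Triple_KO library at 0 h, at 169 FPM, and in 1 at 8 h, at 230.0 FPM. Dis3 was high in 1 WT library at 8 h, at 33.4 FPM, and in 1 Triple_KO library at 0 h, at 40.9 FPM, the latter against 37.6 to 38.0 FPM. Dis3l2 had 14.0 FPM in 1 Ythdf3_KO library at 8 h and Exosc1 22.3 FPM in 1 Ythdf2_KO library at 0 h. Upf3a had 8.66 FPM in 1 Triple_KO library at 8 h against 16.1 to 16.6 FPM, and Pelo was at 0 in 1 WT library at 8 h.

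The 8 h change differed between genotypes, by the contrast of both changes in limma, for the members given in the report. Between Triple_KO and WT the log2 differences were 1.51 for Cnot8, 0.98 for Exosc4, 0.76 for Ddx6 and 0.52 for Lsm2. Between Triple_KO and the mean of the single knockouts they were 1.47 for Exosc4, 1.27 for Cnot8, 1.26 for Edc3, 1.04 for Exosc3, 0.74 for Exosc8, 0.61 for Ddx6, 0.55 for Lsm2, 0.52 for Lsm3, 0.50 for Exosc5 and 0.18 for Pabpc1.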

How the results depend on the processing

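Of the 76 named member results, 74 kept their call with a pseudocount of 0.25, 62 without the filter, 64 under TMM scaling, 76 in edgeR and 76 with the replicate block, and none of these 76 turned direction. Among all members called, 4 of 35 turned under TMM scaling in WT over 8 h, 3, 7 and 6 in Ythdf1_KO, Ythdf2_KO and Ythdf3_KO over 8 h, and 1, Pabpc1, in Triple_KO against the single knockouts. With 1 replicate left out the call held in 162 cases and was lost in 64. Deviations of A from B at 0 h correlated between -0.019 and 0.025 across genotypes. Within a genotype, those at 0 h and at 8 h correlated between -0.011 and 0.008. Since A and B differed no more than duplicates, these values cannot tell whether replicates of the same letter share an origin. The replicate block left counts such as 35 members in WT over 8 h and 8 in Triple_KO at 0 h. Members called at 0 h in Ythdf1_KO, Ythdf2_KO and Ythdf3_KO numbered 0, 1 and 1 without the filter, and 0, 1 and 0 in one fit over all times, where Triple_KO had 3. TMM scaling gave 6 for Ythdf3_KO at 0 h, 20 for WT, 20 for Ythdf1_KO, 24 for Ythdf2_KO and 22 for Ythdf3_KO over 8 h, and 1 and 2 for the Triple_KO difference from WT and from the single knockouts. By edgeR these 2 differences had 8 and 18, the Ythdf3_KO difference 1, Triple_KO over 4 h 14 and the 4 h difference 1. With 1 replicate left out, the lone sample being assumed to vary like the others, counts ran 0 to 1, 1 to 3, 1 to 4 and 5 to 9 at 0 h in Ythdf1_KO, Ythdf2_KO, Ythdf3_KO and Triple_KO. Over 8 h they were 27 to 27 in WT, 20 to 26, 30 to 31 and 27 to 28 in the single knockouts, and 8 to 11 in Triple_KO. Over 4 h they were 13 to 15 in WT and 1 to 2 in Triple_KO. The differences in 8 h change gave 0 to 0 for each single knockout, 0 to 3 for Triple_KO against WT and 3 to 11 against the single knockouts. Cnot7 minus Cnot8 ran from 1.036 to 1.181, Tob1 minus Tob2 from -0.746 to -0.447 (passing at -0.746 without WT replicate A), Pabpc1 minus Pabpc4 from 0.098 to 0.173 (passing at 0.173 without WT replicate A and 0.165 without Ythdf1_KO replicate B), Dis3 minus Dis3l from -0.205 to -0.044, turning to 0.061 with a pseudocount of 0.25, and Upf3a minus Upf3b from -0.487 to -0.354. The counts in this section stand without the shares of all genes called in the same settings. Beyond the alternatives' own construction the cause was not tested. Depth limits members below about 5 FPM, where few reads carry a change.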
